A study of Mus musculus with 4 samples.

Results

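The genes described here encode the PPAR and RXR nuclear receptors and 3 proteins that repress them: Ppara, Ppard, Pparg, Rxra, Rxrb, Rxrg, Ncor1, Nrip1 and Hdac3. They were chosen by gene symbol from a table of 15500 genes, with earlier results of these data known. Of the 9 genes, 8 are listed in the table, and Rxrg, the third RXR isotype, is not listed and was not analysed here. The question was which PPAR and RXR isotypes the material expressed. It was also asked whether a PPARα antagonist moved them, or dietary conjugated linoleic acid given in place of linoleic acid.

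PPARs are ligand-activated transcription factors that bind DNA as heterodimers with an RXR, and polyunsaturated fatty acids are among their natural ligands. PPARα (Ppara) is best known for fatty acid oxidation and ketogenesis in hepatocytes, PPARδ (Ppard) is expressed in most tissues, and PPARγ (Pparg) drives adipocyte differentiation and fat storage. Without an agonist the receptors can hold corepressors: NCOR1 forms a complex with the histone deacetylase HDAC3, while RIP140 (Nrip1) binds the ligand-bound form and dampens its activity.

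Liver RNA was sequenced from Kunming mice, an outbred stock, which were fed chow for 1 week and then randomized to 4 diets or treatments. Vehicle and CLA mice were wild-type males bought at 5 weeks of age. Vehicle mice ate chow with 1.5% (w/w) linoleic acid (LA), and CLA mice ate 1.5% conjugated linoleic acid, a mixture of the c9t11 and t10c12 isomers, instead of LA. GW6471 mice ate the LA diet and CLA+GW6471 mice the CLA diet, and both were also injected i.p. each day with the PPARα antagonist GW6471 at 20 mg/kg. The diets lasted 28 days, and Vehicle and CLA livers were taken at zeitgeber time 8, in the light phase. The methods describe only these 2 groups, so strain and treatment of the mice given GW6471 come from the labels, and their age, sex and sampling time are not stated. There were 6 mice per group, but the data hold 1 library per condition, and no source says how many mice a library holds. No difference between conditions therefore has a replicate check, no p-value was computed, and every difference describes these 4 libraries. No gene in the table checks the GW6471 label, and target genes of PPARα such as Pdk4 and Cpt1a were higher in both libraries that carry it, so directions drawn from them rest on the labels alone.

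Expression was given as FPKM, a fragment count corrected for transcript length and library size, so levels can be set side by side between genes. The depth estimated from the steps between low values was 18770000 to 19260000 reads per library. The tissue label was checked against cell type markers. Of 13 hepatocyte markers 11 were listed, and 6 of those had a mean below 1 FPKM. Alb stood at 922 FPKM, Trf at 277 and Hnf4a at 50.2, whereas Ttr was at 0.03, Fga at 0.055, Cyp2e1 at 0.065 and Cps1 at 0.0175, so several defining markers of hepatocytes were close to 0. These values go against RNA of ordinary liver tissue, and the levels below are those of libraries labelled liver, not established levels of hepatocytes. Of the other cell types, all 5 endothelial markers had a mean below 1 FPKM, as had both listed leukocyte markers. Among the 6 listed markers of stellate cells and fibroblasts 5 did so too, with Dcn at 1323 FPKM the exception. The bile duct marker Sox9 stood at 48.8 FPKM and Krt7 at 21.0, and Sprr1a, a gene of stratified epithelia, was at 19942.

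The start regions of the PPAR genes are shown because these 3 genes differed most in level. The sequences are those of the RefSeq promoter table for GRCm38.p6, and each window matched the mm9 assembly, to which the authors mapped their reads, exactly 1 time. The positions below are those in mm9, all on the plus strand, and capitals mark the GC box GGGCGG on either strand. For Ppara only the 62 bases next to the start are printed, because annotated exons of Ppara take up 150 of the 250 bases before it. The Ppard window and the first Pparg window lie in intergenic sequence, and the last Pparg window lies in an intron of Pparg. A further Pparg start between these, also in an intron, is not printed.
Ppara, chr15:85566144-85566205: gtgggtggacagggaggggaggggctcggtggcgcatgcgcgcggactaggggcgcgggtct
Ppard, chr17:28369449-28369698: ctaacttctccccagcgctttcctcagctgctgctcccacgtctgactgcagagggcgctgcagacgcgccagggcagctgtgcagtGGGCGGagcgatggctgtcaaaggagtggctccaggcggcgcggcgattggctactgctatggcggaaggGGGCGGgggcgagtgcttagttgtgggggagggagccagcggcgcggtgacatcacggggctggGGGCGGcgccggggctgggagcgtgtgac
Pparg first start, chr6:115310912-115311161: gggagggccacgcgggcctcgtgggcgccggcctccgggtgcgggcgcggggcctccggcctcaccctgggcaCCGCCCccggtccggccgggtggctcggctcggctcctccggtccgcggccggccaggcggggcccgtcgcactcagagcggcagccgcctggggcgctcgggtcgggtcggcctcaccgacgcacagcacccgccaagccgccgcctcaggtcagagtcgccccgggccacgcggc
Pparg last start, chr6:115371834-115372083: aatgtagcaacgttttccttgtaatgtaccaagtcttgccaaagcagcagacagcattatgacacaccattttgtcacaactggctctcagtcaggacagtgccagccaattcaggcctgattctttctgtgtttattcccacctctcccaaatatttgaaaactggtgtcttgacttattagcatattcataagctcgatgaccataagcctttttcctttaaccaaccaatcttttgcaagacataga

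These start regions differ in base composition. In the 250 bases before the start, GC content was 76.4% for Ppara, 69.6% for Ppard, 82.4% for the first Pparg start, 63.6% for the middle and 40.8% for the last Pparg start, against a median of 52.4% over all 32851 windows in the table. There were 27 CpG dinucleotides in the Ppara window, 22 in the Ppard window, and 38, 12 and 2 in the first, middle and last Pparg windows. The GC box occurred 2 times for Ppara, 3 times for Ppard and 1, 2 and 0 times for the first, middle and last Pparg starts, and 32.7% of all windows hold it. So the isotype with the lowest level and the one with the highest both have a GC-rich window of 250 bases with GC boxes. For Ppara, 0 of the 2 boxes lie in the 62 printed bases. The E-box CACGTG, to which CLOCK and BMAL1 bind, was in none of the 15 windows of the 8 genes that have one, and 6.02% of all windows hold it. The core motif AGGTCA of the PPAR response element was in 4 of the 15 windows, against 14.0% of all windows, and a direct repeat of it with a spacing of 1 base in none, against 0.0335%. The expression table sums all starts of a gene, so which Pparg start was used cannot be read from it.

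PPARδ was the most abundant PPAR transcript in all 4 libraries, and PPARα transcripts were close to the limit of the measurement. Ppard was at 24.56 FPKM in Vehicle and 19.76 in CLA, with 22.27 in GW6471 and 27.27 in CLA+GW6471. Pparg was at 8.06 FPKM in Vehicle and 10.74 in CLA, with 9.28 in GW6471 and 9.68 in CLA+GW6471. Ppara was at 0.15 FPKM in Vehicle and 0.11 in CLA, with 0.06 in GW6471 and 0.07 in CLA+GW6471. The order Ppard, Pparg, Ppara was the same in each library, with no overlap of the values of any pair of isotypes.

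As a share of the summed PPAR FPKM, Ppard made up 74.9% in Vehicle and 64.6% in CLA, with 70.5% in GW6471 and 73.7% in CLA+GW6471. Pparg made up 24.6%, 35.1%, 29.4% and 26.1% in the same order, and Ppara between 0.189% and 0.458%. The share of Pparg was thus highest and that of Ppard lowest in the CLA library. The ratio of Ppard to Pparg was 3.05 in Vehicle and 1.84 in CLA, with 2.40 in GW6471 and 2.82 in CLA+GW6471. It was thus highest in Vehicle and lowest in CLA, and no counting interval was computed for it.

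The values of Ppara correspond to about 10 reads in Vehicle and 7 in CLA, with 4 in GW6471 and 5 in CLA+GW6471. A 95% counting interval (exact Clopper-Pearson on the reads of both libraries) was computed for each log2 ratio from such estimated reads, and it covers counting error only. For CLA against Vehicle the log2 ratio of Ppara, computed like all ratios here on FPKM + 0.1, was -0.25, with a counting interval from -2.15 to 1.02. For GW6471 it was 0.06 FPKM to 0.15 in Vehicle, giving a log2 ratio of -0.64 with an interval from -3.47 to 0.45. The intervals belong to the ratios without the added 0.1. For Ppara these ratios were 0.73 for CLA and 0.40 for GW6471, each against Vehicle. Neither difference was detectable at this depth, nor were those of CLA+GW6471 to CLA, from -2.52 to 1.35, and to GW6471, from -1.91 to 2.64. The mean of Ppara was below that of most genes, with only 21.8% of the listed genes lower, and it lay near Cyp2e1 and Fga and far below Alb. In RNA of a whole sample, fewer cells that express a gene and less RNA of it per cell cannot be told apart.

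**Figure D1:**
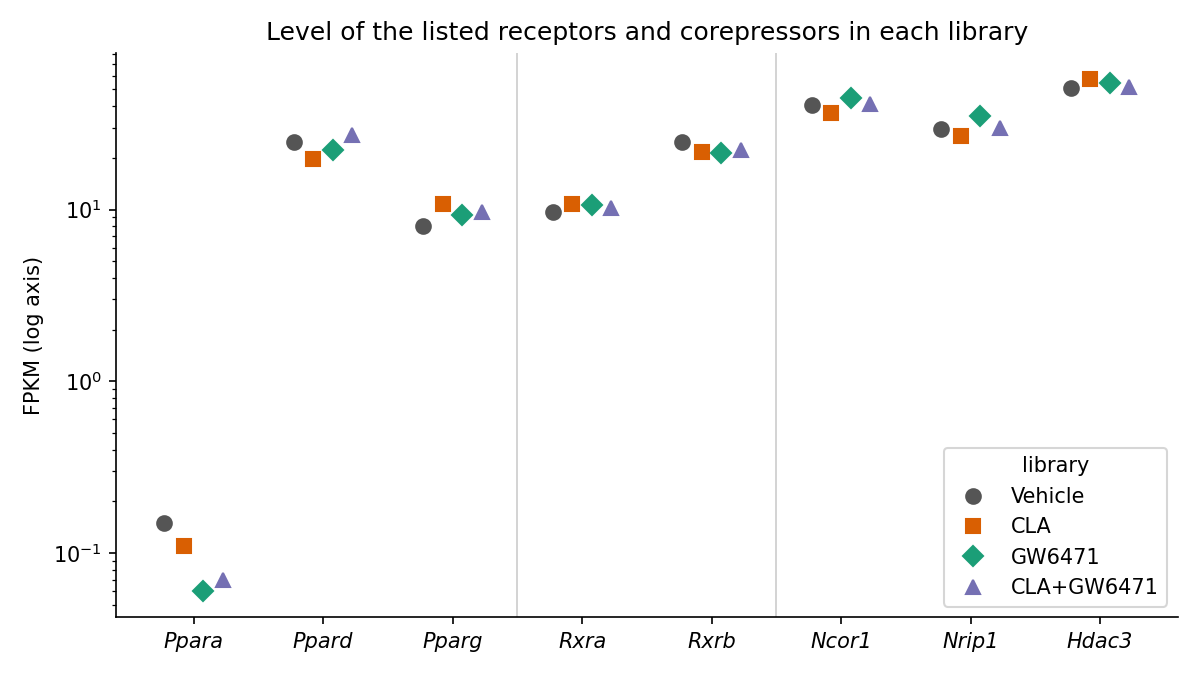
FPKM of the 8 listed genes (log axis) in the 4 libraries, 1 symbol per library, with the PPARs left, the RXRs in the middle and the corepressors right. Ppara lies between 0.06 and 0.15 FPKM, while the other 7 genes lie between 8.06 and 57.76.

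Of the RXRs, which every PPAR needs as a partner, Rxrb was the more abundant. Rxrb was at 24.71 FPKM in Vehicle and 21.51 in CLA, with 21.41 in GW6471 and 22.11 in CLA+GW6471. Rxra, the isotype best known from liver, was at 9.70, 10.72, 10.61 and 10.15 FPKM in the same order. The 2 genes did not overlap, and Rxrb was 2.01 to 2.55 times Rxra. The summed FPKM of the PPARs was 0.952 times that of the listed RXRs in Vehicle and 0.950 in CLA, with 0.987 in GW6471 and 1.15 in CLA+GW6471.

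In each library the corepressor genes were above all of the receptors in level. Hdac3, which encodes the deacetylase of the NCOR1 complex, was at 50.66 FPKM in Vehicle and 57.76 in CLA, with 54.61 in GW6471 and 51.90 in CLA+GW6471, and its mean was above that of 89.9% of the listed genes. Ncor1 was at 40.48, 36.58, 44.44 and 41.38 FPKM, and Nrip1 at 29.25, 26.68, 35.10 and 29.78 FPKM in the same order. Both were lowest in the CLA library and highest in the GW6471 library, whereas Hdac3 was highest in CLA and lowest in Vehicle. In Ncor1, 88 exonic bases overlap exons of Pigl or Ttc19 on the other strand, and no source says whether the counting used strand.

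In each library the order was Hdac3, Ncor1 and Nrip1, then Ppard and Rxrb, then Rxra and Pparg, then Ppara. Within 2 of these steps the neighbours could not be ordered: Rxrb was above Ppard in Vehicle and CLA and below it in the other libraries, and Pparg was above Rxra in CLA only. No stretch of 50 bases of the longest coding transcript of any of the 8 listed genes was found in another coding gene of the annotation, so these isotypes are distinct at that read length.

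The CLA diet without the antagonist is the comparison that does not rest on the libraries labelled GW6471. A gene was called here when it differed by at least 1.5-fold between 2 libraries and had a mean of at least 1 FPKM over the 4, which left 10355 genes and 7 of the 8 listed members (Ppara fell below). Between CLA and Vehicle, 0 of the 7 were called, and of all genes 7.3% were called higher and 4.95% lower. At such shares a count of 0 among 7 says little about the members, here and in the comparisons below. Pparg had the largest difference, with 10.74 FPKM in CLA against 8.06 in Vehicle, 1.33 times as much and a log2 ratio of 0.41 (95% counting interval 0.19 to 0.64). The 4 listed markers of Kupffer cells and macrophages, which also express Pparg, summed to 64.2 FPKM in CLA and 47.8 in Vehicle (46.6 in GW6471 and 44.4 in CLA+GW6471), mostly Cd68 and Cd14, with Emr1 at 0.06 on average, and their part in the result was not tested. Ppard was lower, with a log2 ratio of -0.31 (-0.42 to -0.20), as was Rxrb with -0.20 (-0.32 to -0.08). Hdac3 was higher with 0.19 (0.10 to 0.28). The other log2 ratios were 0.14 for Rxra (0.01 to 0.28), -0.15 for Ncor1 (-0.20 to -0.10) and -0.13 for Nrip1 (-0.20 to -0.07). All 7 lay beyond their counting interval, 3 higher and 4 lower, as did 65.6% of the 9762 genes with a known length. The median log2 ratio of the 7 members was -0.13, against -0.0071 over all genes. With a limit of 1.3-fold Pparg was the 1 member of 7 past it, where 15.1% of all genes were higher by that much.

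The next comparison is that of the antagonist on the LA diet. Between GW6471 and Vehicle 0 of the 7 members were called, against 3.28% of all genes higher and 2.1% lower. Nrip1 had the largest difference, 35.10 FPKM in GW6471 and 29.25 in Vehicle, which is a log2 ratio of 0.26 (0.20 to 0.32). Rxrb had -0.21 (-0.33 to -0.09), Ncor1 0.13 (0.09 to 0.18), Ppard -0.14 (-0.25 to -0.03) and Hdac3 0.11 (0.02 to 0.20). These 5 lay beyond their counting interval, against 55% of all genes. Pparg, at 0.20 (-0.03 to 0.44), and Rxra, at 0.13 (-0.0024 to 0.26), did not. The median log2 ratio of the members was 0.13, against -0.0041 over all genes. Without the filter on low values Ppara, at about 4 and 10 reads, was past 1.5-fold lower, as were 4.83% of the 15500 genes.

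With the antagonist added to the CLA diet, Ppard had the largest difference of any of the 7 members in the 4 comparisons. It was at 27.27 FPKM in CLA+GW6471 and 19.76 in CLA, 1.38 times as much, with a log2 ratio of 0.46 (0.36 to 0.57). Again 0 of the 7 members were called, against 6.84% of all genes higher and 9.15% lower. Ncor1 had a log2 ratio of 0.18 (0.13 to 0.23), Nrip1 of 0.16 (0.10 to 0.22) and Hdac3 of -0.15 (-0.24 to -0.07). Those 4 members lay beyond their counting interval, against 68.8% of all genes, and Pparg, Rxra and Rxrb did not. The median log2 ratio of the members was 0.040, against 0.0090 over all genes. At 1.3-fold, which 16.2% of all genes passed upward, Ppard was the 1 member of 7 to do so. This comparison shares the CLA library with that of CLA against Vehicle, so a value that is low or high there enters both.

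The CLA diet was also compared within the mice given the antagonist. In CLA+GW6471 against GW6471 0 of the 7 members were called, against 2.81% of all genes higher and 3.88% lower. Ppard had a log2 ratio of 0.29 (0.19 to 0.40), Nrip1 of -0.24 (-0.29 to -0.18) and Ncor1 of -0.10 (-0.15 to -0.06), and these 3 lay beyond their counting interval, against 59.4% of all genes. Pparg, at 0.060 (-0.16 to 0.28), Rxrb, Rxra and Hdac3 did not. The median log2 ratio of the members was -0.063, against 0.0041 over all genes.

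**Figure D2:**
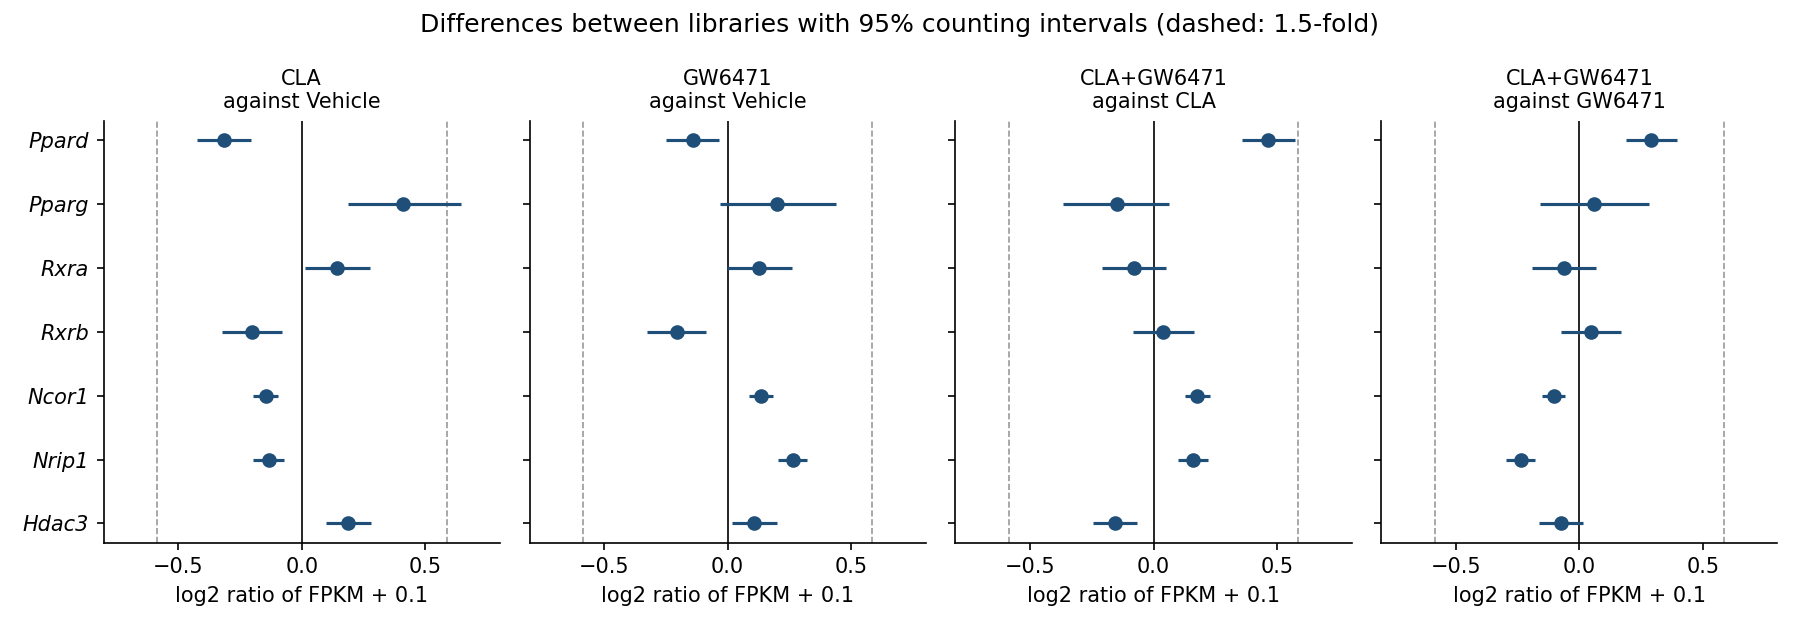
Log2 ratio of FPKM + 0.1 in the 4 comparisons for the 7 members with a mean of at least 1 FPKM (points), with 95% counting intervals (lines) and dashed lines at 1.5-fold. No point reaches a dashed line, and the largest, 0.46, is that of Ppard in CLA+GW6471 against CLA.

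The comparisons of CLA with Vehicle and of CLA+GW6471 with GW6471 share no library. Of the 7 members, 4 had opposite signs in them, Ppard, Rxra, Rxrb and Hdac3, while 73% of all genes did. Ppard alone had opposite signs with both ratios beyond their counting intervals, as had 40.1% of all genes. It was 0.31 lower with CLA on the log2 scale without the antagonist and 0.29 higher with it. Pparg was higher with CLA in both, by 0.41 and 0.060, and Ncor1 and Nrip1 were lower in both, Ncor1 by 0.15 and 0.10 and Nrip1 by 0.13 and 0.24, each time beyond the counting interval. The sign of Rxrb, and that of Pparg, in CLA+GW6471 against GW6471 turned when the libraries were scaled to a common FPKM sum.

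Over the 4 libraries the highest value was 1.38 times the lowest for Ppard, 1.33 for Pparg, 1.32 for Nrip1, 1.21 for Ncor1, 1.15 for Rxrb, 1.14 for Hdac3 and 1.11 for Rxra. The range of Ppard was larger than that of 67.1% of the 10355 genes, whereas the range of Rxra was larger than that of only 9.12%. The median range of the 7 members was 0.28 on the log2 scale, against 0.35 over all genes.

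**Figure D3:**
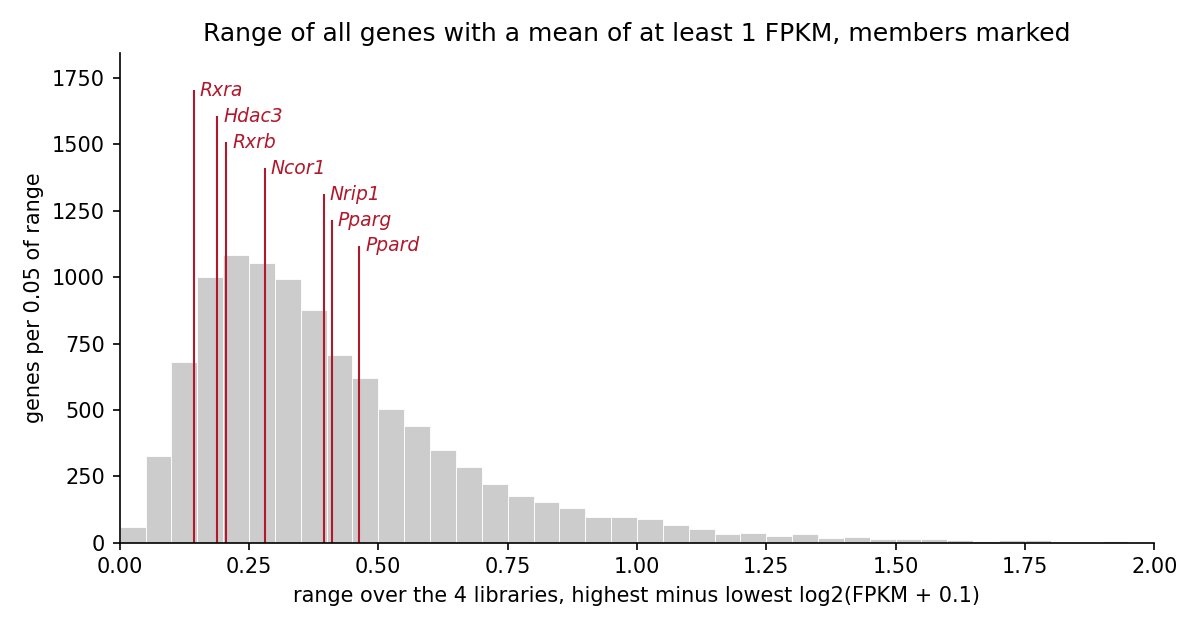
Number of genes (y axis) by their range over the 4 libraries, highest minus lowest log2(FPKM + 0.1) (x axis), for the 10355 genes with a mean of at least 1 FPKM, of which 40 lie beyond the axis. Red lines mark the 7 members, from Rxra at 0.14 to Ppard at 0.46.

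Ppard followed the order CLA+GW6471, Vehicle, GW6471, CLA from highest to lowest. The summed FPKM of the 11 listed hepatocyte markers, most of it Alb, ran in the reverse order, at 931 in CLA+GW6471, 1005 in Vehicle, 1523 in GW6471 and 1865 in CLA, and its part in the result was not tested. Sprr1a, nearly all of the summed markers of stratified epithelium, ranked the libraries as Ppard did, at 26116 FPKM in CLA+GW6471, 19046 in Vehicle, 18795 in GW6471 and 15810 in CLA. Dcn, nearly all of the summed markers of stellate cells and fibroblasts, ran in the reverse order of Ppard. It was at 1148 FPKM in CLA+GW6471, 1287 in Vehicle, 1350 in GW6471 and 1506 in CLA. The markers of a list did not move together. Of the hepatocyte markers, Hnf4a was at 54.53 FPKM in Vehicle, 51.84 in CLA+GW6471, 47.31 in CLA and 47.23 in GW6471, so unlike Alb it was higher in the libraries where Ppard was higher. Krt5, of the same list as Sprr1a, was highest in CLA at 4.29 FPKM. The bile duct markers summed to 85.6 FPKM in Vehicle and 84.5 in CLA+GW6471, above 75.1 in GW6471 and 66.9 in CLA, but within them Sox9 ranked the libraries as Ppard did while Epcam was highest in CLA, at 8.95 FPKM. The part of these genes was not tested either. The genes with the profile most like that of Ppard, by Euclidean distance between log2(FPKM + 0.1) centred over the 4 libraries, were Ndufaf2 at 0.011, Map7d1 at 0.014 and F11r at 0.020. Ndufaf2, for example, was at 29.96 FPKM in Vehicle and 24.36 in CLA, with 27.32 in GW6471 and 33.43 in CLA+GW6471. With 4 libraries such likeness is common, and 261 of 10354 genes lay within a distance of 0.1.

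Other genes of corepressor complexes were not called either. All 11 in the list had a mean of at least 1 FPKM, and 0 were called in any of the 4 comparisons. Since between 2.1% and 9.15% of all genes were called per comparison and direction, a count of 0 among 11 says little about these genes. Gps2, a subunit of the NCOR1 complex, was at 54.30 FPKM in Vehicle and 40.73 in CLA, with 47.27 in GW6471 and 60.67 in CLA+GW6471, ranked as Ppard was. Hdac1, the deacetylase of the SIN3 complex, had 37.64, 47.34, 39.62 and 35.26 FPKM, and Sin3a, its scaffold, 9.56, 12.18, 11.55 and 9.58 FPKM, both highest in CLA. The median log2 ratio of the list was 0.031 in CLA against Vehicle, 0.066 in GW6471 against Vehicle, -0.078 in CLA+GW6471 against CLA and -0.17 in CLA+GW6471 against GW6471.

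The coactivators, which replace corepressors on the ligand-bound receptor, numbered 10, and 1 of them was called, in a comparison where 6.84% of all genes were called higher. Crebbp, a histone acetyltransferase, was at 6.05 FPKM in Vehicle and 4.26 in CLA, with 6.52 in GW6471 and 6.97 in CLA+GW6471. Its log2 ratio was 0.70 (0.56 to 0.86) in CLA+GW6471 against CLA, where it was called higher. In CLA against Vehicle 0 of the 10 were called, with a median log2 ratio of -0.25, and 7 were lower and 0 higher beyond their counting interval, where 33.5% of all genes were lower and 32.1% higher beyond it. In CLA+GW6471 against CLA the median was 0.37, and 9 were higher and 0 lower beyond it, where 35% of all genes were higher and 33.8% lower. These medians share the CLA library. The genes Crebbp, Ncoa6, Carm1 and Ppargc1a also stand in the study's own display of circadian genes from these libraries, so the list is not independent evidence of a direction. Ncoa6 had 27.56, 22.37, 28.29 and 29.67 FPKM, and Ncoa1 2.10, 1.85, 2.40 and 2.52 FPKM, in the order Vehicle, CLA, GW6471 and CLA+GW6471.

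RXRs also pair with other receptors, of which 13 were listed and 8 had a mean of at least 1 FPKM. In CLA against Vehicle 1 of the 8 was called higher and 2 lower, where 7.3% of all genes were higher and 4.95% lower. Nr1h4, the bile acid receptor FXR, was at 9.39 FPKM in Vehicle and 5.59 in CLA, with 6.44 in GW6471 and 10.65 in CLA+GW6471, with a log2 ratio of -0.74 in CLA against Vehicle, beyond its counting interval, and of 0.92 (0.68 to 1.17) in CLA+GW6471 against CLA. Nr4a2, an orphan receptor, was at 7.89, 4.81, 6.50 and 7.60 FPKM. Vdr, the vitamin D receptor, was at 0.93, 1.47, 1.11 and 0.98 FPKM. It was the call higher in CLA against Vehicle, which was lost with a pseudocount of 1, a filter at 5 FPKM, a limit of 2-fold or scaling to a common FPKM sum. Both Nr1h4 and Nr4a2 were lowest in the CLA library, and Vdr was highest there. In GW6471 against Vehicle 0 of the 8 were called (3.28% of all genes higher and 2.1% lower). In CLA+GW6471 against CLA 2 were called higher (6.84% of all genes), and in CLA+GW6471 against GW6471 1 was (2.81% of all genes), Nr1h4.

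The REV-ERB receptors, which use NCOR1 and HDAC3 to repress their targets, were not called in any comparison, which says little for 2 genes where 2.1% to 9.15% of all genes were called per comparison and direction. Nr1d1 was at 17.97 FPKM in Vehicle and 22.83 in CLA, with 22.71 in GW6471 and 23.29 in CLA+GW6471, so Vehicle was the lowest and the other 3 libraries lay close together. Nr1d2 was at 9.78, 12.62, 13.77 and 9.94 FPKM. Its log2 ratio was 0.36 (0.24 to 0.50) in CLA against Vehicle and -0.47 (-0.60 to -0.34) in CLA+GW6471 against GW6471.

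Fatty acid binding proteins carry ligands to the receptors, and FABP5 and FABP4 are linked with PPARδ and PPARγ. Fabp5 was at 72.97 FPKM in Vehicle and 71.01 in CLA, with 55.45 in GW6471 and 67.78 in CLA+GW6471. Fabp4 was at 6.97, 7.76, 5.68 and 4.47 FPKM, and its log2 ratio of -0.78 (-1.30 to -0.30) in CLA+GW6471 against CLA was called lower, as were 9.15% of all genes. Fabp1, the liver form linked with PPARα, is not listed in the table.

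Genes that PPARs activate in liver held the largest differences of the lists, and several were higher in the libraries labelled with the antagonist. Of 20 such genes 19 were listed and 13 had a mean of at least 1 FPKM. In GW6471 against Vehicle 6 of the 13 were called higher and 0 lower, where 3.28% of all genes were higher and 2.1% lower, with a median log2 ratio of 0.39 against -0.0041 over all genes. In CLA against Vehicle 2 were called higher and 0 lower (7.3% and 4.95% of all genes), with a median of 0.40, and with a pseudocount of 1 or a limit of 2-fold 0 of these calls remained. Between CLA+GW6471 and CLA 4 were called higher and 1 lower (6.84% and 9.15% of all genes), with a median of 0.33. None, 0 of 13, was called in CLA+GW6471 against GW6471 (2.81% of all genes higher and 3.88% lower), with a median of -0.11. The genes called in CLA against Vehicle were Pdk4 and the carnitine carrier Slc25a20, and in CLA+GW6471 against CLA Pdk4, Cpt1a, Angptl4 and the lipid droplet gene Plin2 were higher and the peroxisomal thiolase Acaa1a lower. Pdk4, a kinase that restrains pyruvate oxidation, was at 1.17 FPKM in Vehicle and 1.87 in CLA, with 17.99 in GW6471 and 15.56 in CLA+GW6471. Cpt1a, the rate-limiting enzyme of mitochondrial fatty acid import, was at 11.34, 15.98, 46.04 and 43.13 FPKM, and Angptl4, a secreted inhibitor of lipoprotein lipase, at 11.47, 10.15, 26.76 and 32.39 FPKM. These 3 genes were named for their large ratios, so that both libraries labelled with the antagonist lay above both without it is a description. Over all 13 targets 7 lay above, 1 below (Hadhb) and 5 overlapped, while of all genes 9.88% lay above and 10.8% below. Of the 7 members 2 lay above, 0 below and 5 overlapped. Those above were Ncor1 and Nrip1, with narrow gaps, Ncor1 at 41.38 and 44.44 FPKM against 36.58 and 40.48, and Nrip1 at 29.78 and 35.10 FPKM against 26.68 and 29.25. Ppara was at 0.06 and 0.07 FPKM with the antagonist and at 0.11 and 0.15 without it, a difference not detectable at this depth.

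**Figure D4:**
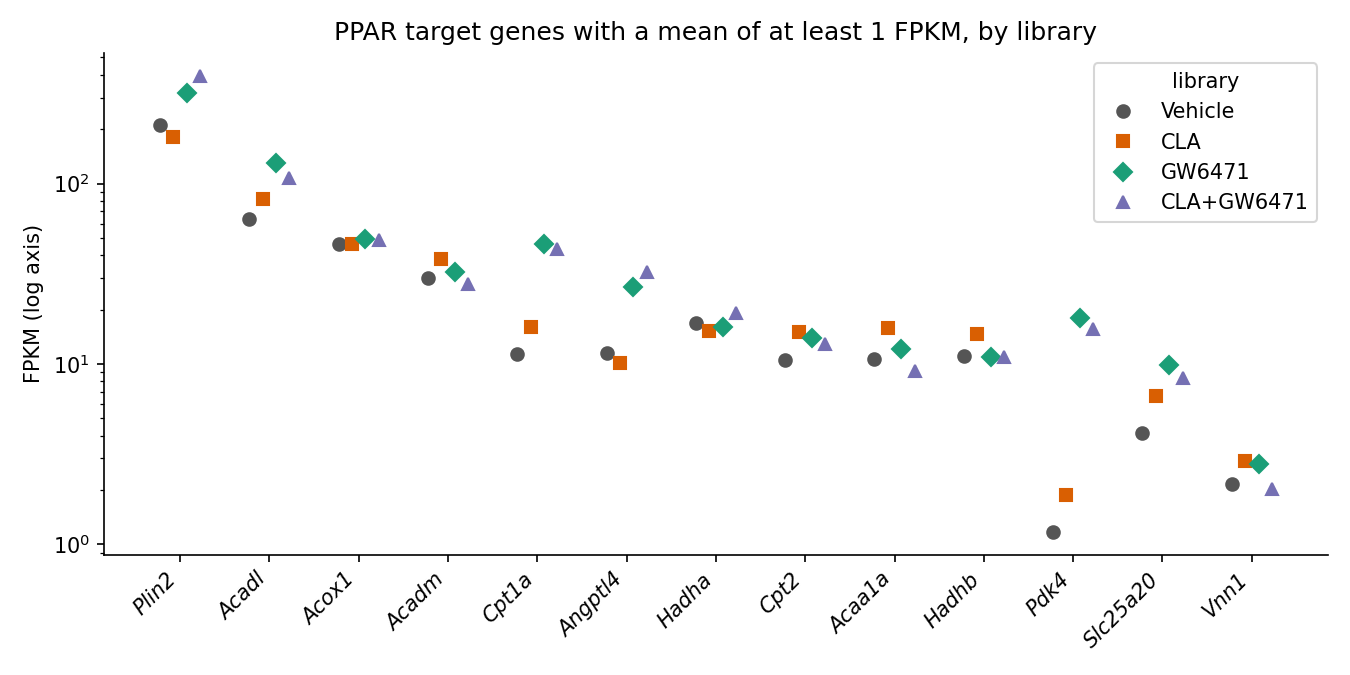
FPKM (log axis) of the 13 PPAR target genes with a mean of at least 1 FPKM, ordered by their mean, 1 symbol per library. Pdk4, Cpt1a and Angptl4 separate the libraries with GW6471 from those without it, for Pdk4 with 15.56 and 17.99 against 1.17 and 1.87 FPKM.

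Of 7 adipocyte genes that PPARγ activates, 5 were listed and 3 had a mean of at least 1 FPKM. Cidec, a lipid droplet protein, was at 5.19 FPKM in Vehicle and 1.69 in CLA, with 2.32 in GW6471 and 4.85 in CLA+GW6471, a log2 ratio of -1.56 (-2.08 to -1.17) in CLA against Vehicle. It was called in each of the 4 comparisons, lower with CLA alone or with GW6471 alone and higher in CLA+GW6471 against either. The shares of all genes called in these directions were 4.95% and 2.1% lower and 6.84% and 2.81% higher. A filter at 5 FPKM, above the mean of 3.51 FPKM of Cidec, removed its 4 calls. Fabp4, which is also in this list, was the other call, lower in CLA+GW6471 against CLA, where 9.15% of all genes were lower. Lpl, lipoprotein lipase, was at 31.38, 35.10, 37.84 and 31.69 FPKM and was not called. Adipoq and Cd36, with means of 0.030 and 0.015 FPKM, were close to 0 in each library, while Pparg was at 8.06 FPKM or more.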

How the data were processed

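Liver RNA of 4 conditions was measured in 1 library each, and samples were assigned from their labels. Per the labels and methods, BWA, Bowtie and Cufflinks were used with the mm9 assembly, and the authors deposited FPKM with 2 decimals for 15500 genes. The tool versions and the filter behind the listed genes are not given in the sources used here, and the unit was taken from the study's supplement, since the table names none. Log2 ratios were taken of FPKM + 0.1. Counts of genes used a mean of at least 1 FPKM and a ratio of at least 1.5-fold. No test was made, since no condition has a replicate.

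The table holds no counts. Depth was estimated from the step between low values (0.02 to 0.5 in FPKM times length in kb) of 500 genes under 1000 nt with 1 annotated transcript, and searched between 10000000 and 30000000 reads. It came to 18770000 reads in Vehicle and 18800000 in CLA, with 19100000 in GW6471 and 19260000 in CLA+GW6471. From this depth and the length of the longest coding GENCODE vM1 transcript, reads per gene and 95% counting intervals (exact Clopper-Pearson) were derived. They are approximate, because the lengths Cufflinks used are not known, and they cover counting error only. The steps were tested on simulated data, drawn as random reads with the same gene lengths that the method assumes. Such data cannot check the unknown lengths that Cufflinks used. In the real libraries 128 to 137 low values per library set the depth.

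The members and lists were chosen with earlier results of these data known. Named genes are all members, the 3 genes of each pathway list with the largest log2 ratio in any comparison (every gene of a list of 3 or fewer), and the 3 genes with the profile nearest to that of the member with the largest range. Genes of a pathway list named outside this rule (Carm1, Ppargc1a, Slc25a20, Plin2, Acaa1a, Hadhb, Adipoq, Cd36) were chosen after their values were seen. So were the single genes named from the cell type marker lists. Among them, Alb, Dcn, Hnf4a, Sox9, Epcam, Krt5 and Sprr1a were set beside Ppard. Alternatives were other pseudocounts, filters, folds and scalings. Computations ran in Python 3.11.15 (pandas 2.3.3, numpy 2.4.6, scipy 1.17.1), and figures were drawn with matplotlib 3.10.9.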

Additional observations from a re-analysis of the deposited data

Results flagged for a closer look

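For 4 members the CLA library lay on one side of Vehicle and the CLA+GW6471 library on the other side of GW6471. With 1 library per condition the difference between these log2 ratios was not tested. Ppard had the largest, at 0.60 (-0.31 without and 0.29 with the antagonist), and was the 1 of these 4 whose ratios both lay beyond their counting intervals. The difference was 0.25 for Rxrb, -0.26 for Hdac3 and -0.21 for Rxra, whose ratios within the mice given GW6471 were 0.046, -0.073 and -0.063 and lay within their counting intervals. Opposite signs were found for 73% of all genes.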

How the results depend on the processing

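No paired analysis was possible because each condition has 1 library, so the groups share fewer than 2 replicate numbers. For the same reason no replicate was left out.

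With 1.3-fold in place of 1.5-fold, 1 member was called in CLA against Vehicle (Pparg) and 1 in CLA+GW6471 against CLA (Ppard), where 15.1% and 16.2% of all genes were higher by that much. Without the filter on low values 1 was called in GW6471 against Vehicle, which was Ppara at about 4 against 10 reads, where 4.83% of all genes were lower. No member was called under the other alternatives, and with Ppara left out no log2 ratio of a member was larger than 0.47 in size under any alternative. Of 28 such ratios 2 changed sign, both in CLA+GW6471 against GW6471 on scaling to a common sum: Rxrb to -0.019 and Pparg to -0.0049. There Ncor1 moved to -0.17 and Nrip1 to -0.30. This scaling moved the median of all genes by at most 0.065 on the log2 scale.

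Over all pathway lists, the genes called higher in CLA against Vehicle numbered 3, and 0 with a pseudocount of 1 or 2-fold, 7 without the filter and 9 with 1.3-fold. Those called lower numbered 3, then 5 with 1.3-fold and 1 with 2-fold. In GW6471 against Vehicle 6 were higher, 11 without the filter and 10 with 1.3-fold, and 1 was lower, 2 without the filter, 0 with a filter at 5 FPKM and 3 with 1.3-fold. In CLA+GW6471 against CLA 8 were higher, 13 with 1.3-fold and 5 with 2-fold, and 2 lower, 8 without the filter, 9 with 1.3-fold and 0 with 2-fold. The higher call of Vdr in CLA against Vehicle was also lost on scaling to a common sum. In CLA+GW6471 against GW6471 2 were higher, 1 with a filter at 5 FPKM or with 2-fold, and 0 lower, 4 without the filter, 1 on scaling to a common sum and 4 with 1.3-fold. Looser or stricter limits change such counts by construction, and the cause was not tested for the scaling and the pseudocount.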
